A study of Mus musculus with 6 samples.

Results

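Of 5097 cell barcodes of mouse fetal testis germ cells that held at least 5000 UMIs, 509 carried the smallest share of transcripts from 18 cell-cycle genes, and these 509 are described here as the low class. The 18 ranking genes were Mcm2, Mcm3, Mcm4, Mcm5, Mcm6, Mcm7, Pcna, Rrm2, Tyms, Mki67, Top2a, Cdk1, Ccnb2, Birc5, Ube2c, Cenpf, Tpx2 and Nusap1. Their raw UMIs (unique molecular identifiers, each standing for 1 captured transcript) were summed in each barcode and divided by all its UMIs, and the low class was chosen by this share as the lowest 10% over the 6 samples together. The other 4588 barcodes served as the comparison, with the 18 genes left out of every test. The deposited table held 5160 barcodes in all, of which 63 were too shallow to be ranked.

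The cells came from testes of embryonic day 14.5 mice whose background mixed C57/B6 with 129. The 3 control samples were labelled wildtype, and the 3 cKO samples carried a conditional knockout of Rb1, the retinoblastoma gene. In all 6, cells carrying the red fluorescent protein tdTomato had been isolated on a cell sorter, and their transcripts were read from the 3' end with 10x Genomics v2 chemistry. The labels name neither the promoter that drives Cre and tdTomato, nor the deleted exon, nor the number of embryos behind a sample, so the p-values below rest on a spread between samples that may be technical.

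Male germ cells of the fetal testis divide as gonocytes and then stop in the G0/G1 stage of the cell cycle, where they stay until after birth. The retinoblastoma protein binds E2F transcription factors and holds back the genes of DNA replication, among them Mcm2 to Mcm7, Pcna, Rrm2 and Tyms. Mitotic genes such as Aurka and Plk1 are switched on later in the cycle by factors that bind the cell cycle genes homology region (CHR) and neighbouring CCAAT boxes of their promoters.

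The low class was the lower end of a distribution with no gap at its limit. The ranking share ran from 0.112% to 0.778% of a barcode's UMIs, with a median of 0.283% in the low class and 0.410% in the other barcodes. The highest member stood at 0.31031% and the lowest barcode outside at 0.31036%, and 109 members and 146 other barcodes lay within 0.01 percentage points of that limit. The 18 genes were reduced in the low class and not absent: a member held 9 to 76 of their UMIs, and their summed level was 2630 to 2867 CPM (UMIs scaled to a common total per sum) in the low class of the 6 samples, against 4033 to 4353 CPM in the other barcodes. These values chose the members and are given as a description. Counting alone gives a standard deviation of 0.0546 percentage points in the share, of the 0.0759 measured. When every barcode was thinned to 5000 UMIs and ranked again, 266 of the 509 members (52.3%) were still in the lowest 10% and 381 (74.9%) in the lowest 20%.

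Barcodes can be low by lacking replication transcripts or by lacking mitotic ones, and the low class mixed both. Across the 5097 barcodes, the share of the 9 replication genes (Mcm2 to Mcm7, Pcna, Rrm2, Tyms) and that of the 9 mitotic genes had a Pearson correlation of -0.41, a description over barcodes that share libraries and in which both shares have the same total as denominator. The lowest 10% by the replication genes and the lowest 10% by the mitotic genes had 20 barcodes in common, 3.93% of each set. Of the 509 members, 118 were in the lowest 10% by replication genes and 253 by mitotic genes. Summed over a sample's members, the replication genes had 1104 to 1276 CPM against 1528 to 1796 CPM in the other barcodes, and the mitotic genes 1503 to 1591 CPM against 2466 to 2638 CPM.

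The germ cell identity given by the labels held in the low class. The 10 germ cell markers (Dazl, Ddx4, Dppa5a, Pou5f1, Dppa3, Mael, Dnd1, Sall4, Nanos3 and Kit) summed to 8575 to 9744 CPM in the low class and 8704 to 9721 CPM in the other barcodes, and all 10 had UMIs in both. Of 9 marker lists for other cell types, the Sertoli, stromal, myoid, macrophage, erythroid and epithelial lists lay between 0 and 32.4 CPM in every sample's low class. Dhh, Gata4, Mro and Erbb4 of Sertoli cells, Hsd3b1 and Insl3 of Leydig cells, Tcf21 of stroma, Acta2, Myh11 and Cnn1 of myoid cells, Adgre1 of macrophages and Upk3b and Pax2 of epithelia had no UMI in the low class. The endothelial list (53.4 to 251 CPM, all 8 markers detected) was led by Pecam1, which gave 269 of its 557 UMIs and is also known from germ cells, and the Leydig list (47.2 to 62.9 CPM, 5 of 7 markers detected) by Fdx1, with 358 of 365 UMIs. The endothelial list was highest in the low class of cKO 1.

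Single barcodes of other kinds stood apart. Of 11 barcodes with over 1000 CPM of other markers or under 1000 CPM of germ cell markers, 3 were members. One member of control 2 held 11840 UMIs with 84.5 CPM of germ cell markers and 34882 CPM of the other lists, and it gave all 357 UMIs of Pf4, a platelet chemokine, among that sample's members, so that the platelet list reached 573 CPM there and 0 to 4.93 CPM in the members of the other samples. A member of cKO 1 with 1917 CPM and a member of control 3 with 2241 CPM of other markers still held 6519 and 7844 CPM of germ cell markers. Without the 11 barcodes the comparison with other barcodes again called 191 genes, 171 of them the same. Scrublet called 9 members (1.77%) and 3.10% of the other barcodes doublets. Over all 5160 barcodes, 18 had a barcode sequence that was found in more than 1 library.

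Members had fewer UMIs than the other barcodes of their sample and a slightly higher mitochondrial share. The median was 11837 to 16372 UMIs per member and 12947 to 17830 per other barcode, lower in members in 6 of 6 samples. Mitochondrial genes gave a median of 3.69% to 4.39% of UMIs in members and 3.56% to 4.10% in the others, higher in members in 6 of 6 samples. The depth behind each sum was 202972 UMIs in the low class of cKO 1, which had 15 members, and 678618 to 2294014 UMIs in the low class of the other samples.

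Control samples held a larger part of the low class than cKO samples. The low class took up 124 of 780 ranked barcodes of control 1 (15.9%, exact 95% interval 13.4% to 18.7%), 43 of 427 of control 2 (10.1%, 7.38% to 13.3%) and 195 of 1335 of control 3 (14.6%, 12.8% to 16.6%). It took up 15 of 474 in cKO 1 (3.16%, 1.78% to 5.17%), 76 of 927 in cKO 2 (8.20%, 6.51% to 10.2%) and 56 of 1154 in cKO 3 (4.85%, 3.69% to 6.26%). These intervals cover counting error only. Every control lay above every cKO sample, with control 2 and cKO 2 closest. The control mean was 13.5% ± 3.06 and the cKO mean 5.41% ± 2.56 (SD over 3 samples each), a difference of 8.12 percentage points, with p = 0.1 by the exact two-sided permutation test, the smallest value that 3 samples against 3 allow. With the lowest 20% as the class the groups overlapped, at 18.3% in control 2 and 18.8% in cKO 2 (exact permutation p = 0.2). Since 9 of the 18 ranking genes are replication genes and E2F targets, this share is no readout independent of the level of those genes. Ranked by these 9 alone, the lowest 10% took up on average 13.2% of control and 6.20% of cKO barcodes. Ranked by the 9 mitotic genes alone, it took up 12.1% and 7.17%. Both had an exact permutation p of 0.1.

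**Figure D1:**
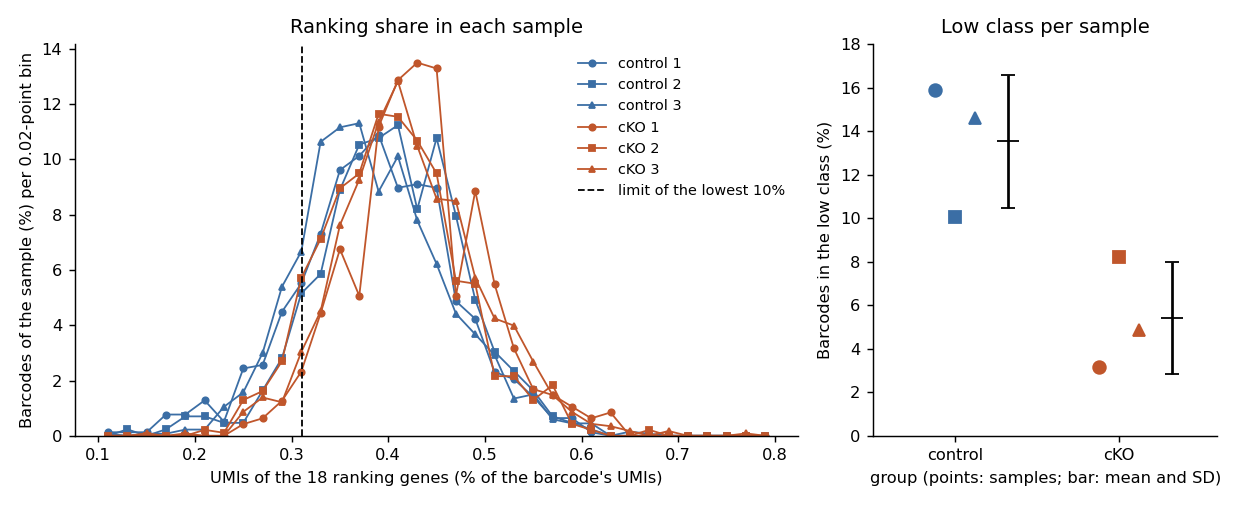
Left, the share of UMIs from the 18 ranking genes (x axis, percent of a barcode's UMIs) against the percent of each sample's barcodes per bin, with 1 line per sample and the limit of the low class dashed. Right, the percent of barcodes in the low class for each sample with the mean and SD of each group: controls lie between 10.1% and 15.9% and cKO samples between 3.16% and 8.20%, and the left panel shows no gap at the limit in any sample.

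Rb1 transcripts checked the labels inside the low class. Rb1 (chr14:73183673-73325822 on GRCm38) had 20, 8 and 18 UMIs in the low class of controls 1 to 3, or 12.9, 11.8 and 8.21 CPM. It had 0, 5 and 3 UMIs in the low class of cKO 1 to 3, or 0, 5.14 and 4.49 CPM. Each control was above each cKO sample, as in the other barcodes, where controls had 9.96, 8.38 and 6.92 CPM and cKO samples 3.44, 3.61 and 3.61 CPM. The counts were too low for Rb1 to pass the filter of the test within members. The 3' end read by this chemistry need not lie in the deleted part. CPM of single genes here and below are of summed UMIs with edgeR's TMM factors.

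Against the other barcodes of the same samples, the low class had a small set of lower genes led by mitotic genes and a larger set of slightly higher genes led by ribosomal protein genes. Of 9918 genes tested with edgeR's quasi-likelihood test on UMIs summed per sample and class, 115 were higher (1.16% of those tested) and 76 lower (0.766%) at a Benjamini-Hochberg adjusted p under 0.05, together 191 (1.93%). At an unadjusted p under 0.05, 558 were higher (5.63%) and 464 lower (4.68%). The median log2 fold change was 0.11 over the genes called higher, -0.31 over those called lower and 0.01 over all genes tested. Of the called genes, 90 were higher and 55 lower in 6 of 6 samples, where 3.01% and 3.36% of all genes tested were higher and lower in all 6. DESeq2, which after its own filter gave an adjusted p for 1265 genes, called 101 higher and 38 lower. With the lowest 5% as the class edgeR called 11 higher and 39 lower, so the larger set was then the lower one. With control 3 left out, 108 genes were called. Because the same cells gave the ranking and the test, genes that move with the cell cycle are described and lend the ranking no support.

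**Figure D2:**
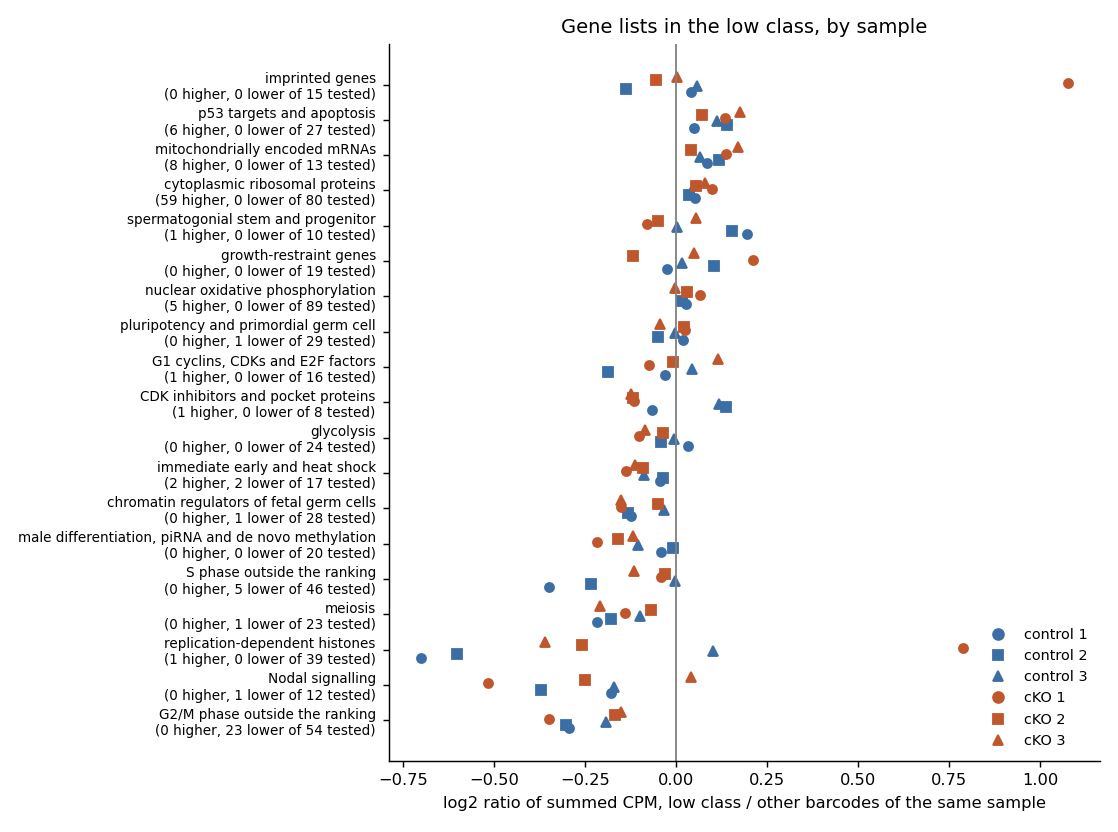
Gene lists (y axis, with the number of genes called higher and lower of those tested) against the log2 ratio of their summed CPM in the low class over the other barcodes of the same sample (x axis), with 1 point per sample. The G2/M, S phase, meiosis, male differentiation, chromatin regulator, and immediate early and heat shock lists lie below 0 in all 6 samples. The p53, mitochondrial and ribosomal lists lie above 0 in all 6, with Rps27l weighing most in the p53 sum. Imprinted genes reach 2.11 times in cKO 1 against 0.909 to 1.04 times elsewhere.

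Mitotic genes outside the ranking were the largest group among the genes that fell. Of 54 G2/M genes tested, 23 were lower and 0 higher, with a median log2 fold change of -0.30 beside 0.01 for all genes. After thinning 13 were lower, with the lowest 5% 11, and by DESeq2 7 of the 14 to which it gave an adjusted p. Their summed level in the low class was 0.785 to 0.901 times that in the other barcodes of the same sample. Aurka, which encodes Aurora kinase A of the spindle poles (chr2:172356190-172370535), had 46.5, 38.3 and 54.3 CPM in the low class of controls 1 to 3 and 52.1, 40.1 and 44.9 CPM in that of cKO 1 to 3. The other barcodes had 78.5, 83.1 and 86.4 CPM in controls and 87.1, 83.9 and 77.2 CPM in cKO samples, so the 2 classes did not overlap (log2 fold change -0.81, SE 0.09, edgeR adjusted p = 1.76e-12).

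Plk1, polo-like kinase 1 (chr7:122159439-122169873), had 26.0 to 52.1 CPM in the low class and 59.3 to 70.1 CPM in the other barcodes (log2 fold change -0.74, SE 0.10, edgeR adjusted p = 7.91e-09). Cenpe, a motor protein of the kinetochore (chr3:135212537-135273611), had 25.0 to 59.9 CPM against 69.3 to 83.0 CPM (log2 fold change -0.64, SE 0.09, edgeR adjusted p = 6.15e-08). For both genes, the highest sum of the low class was below the lowest sum of the other barcodes. Prc1, which bundles microtubules of the central spindle, fell by 0.56 on the log2 scale, Aurkb, the kinase of the chromosomal passenger complex, by 0.54 and Smc4, a condensin subunit, by 0.52.

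The promoters of Aurka, Plk1 and Cenpe were searched for the motifs named above and are shown because these had the largest falls among genes named by rule (a mean of at least 20 CPM and the same direction in 6 of 6 samples). The sequences are the RefSeq windows on GRCm38.p6 of 250 bases before to 50 bases after the transcription start, 5′ to 3′ on the gene's strand, with the CHR (TTTGAA) and the CCAAT box in capitals where the letters occur. They lie at chr2:172370521-172370820 on the minus strand for Aurka, at chr7:122159185-122159484 on the plus strand for Plk1 and at chr3:135212313-135212612 on the plus strand for Cenpe.
Aurka: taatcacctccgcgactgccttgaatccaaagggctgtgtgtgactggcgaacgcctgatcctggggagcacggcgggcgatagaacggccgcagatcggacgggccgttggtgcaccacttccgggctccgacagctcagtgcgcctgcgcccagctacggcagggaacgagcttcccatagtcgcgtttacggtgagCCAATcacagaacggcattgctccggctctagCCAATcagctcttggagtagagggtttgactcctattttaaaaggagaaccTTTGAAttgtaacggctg
Plk1: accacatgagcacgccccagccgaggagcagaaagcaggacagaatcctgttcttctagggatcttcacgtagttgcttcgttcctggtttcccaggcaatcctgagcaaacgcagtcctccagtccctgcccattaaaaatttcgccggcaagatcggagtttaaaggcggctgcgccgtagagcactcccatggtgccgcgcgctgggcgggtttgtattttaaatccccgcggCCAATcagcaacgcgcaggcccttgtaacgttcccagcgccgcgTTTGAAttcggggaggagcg
Cenpe: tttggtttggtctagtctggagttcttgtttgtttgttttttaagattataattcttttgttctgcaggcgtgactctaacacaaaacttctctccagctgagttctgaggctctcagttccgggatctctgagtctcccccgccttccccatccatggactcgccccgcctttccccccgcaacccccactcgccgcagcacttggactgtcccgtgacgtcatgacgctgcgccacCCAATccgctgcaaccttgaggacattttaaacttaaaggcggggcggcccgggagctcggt
Aurka has 1 CHR and 2 CCAAT boxes, Plk1 1 of each and Cenpe 1 CCAAT box with no CHR in this window. Searched on both strands, TTTGAA stood in 45.9% of the promoters of genes called lower (28 of 61 promoters, from 54 of the 76 genes), in 8.82% of those of genes called higher (102 promoters, from 81 of the 115 genes), in 11.7% of those of all genes tested and in 17.9% of all promoters in the table. The CCAAT box stood in 55.7% of the promoters of lower genes, 37.3% of those of higher genes, 38.8% of those of genes tested and 37.4% of all. Prc1 has 2 promoters in the table, both with both motifs, and Aurkb and Smc4 have no entry. Both motifs stood together in 36.1% of the promoters of lower genes against 2.94%, 4.86% and 6.95% in the same order. The E2F sites TTTGGCGC and TTTCCCGC, which overlap neither motif, stood in 6.56%, 1.96%, 3.26% and 1.56%. A match describes letters and not a bound site, and the genes share the ranking that chose them.

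Among the genes named by rule for their fall, some were in neither cell-cycle list. Incenp, another subunit of the chromosomal passenger complex, had 92.1 ± 13.9 CPM in the low class and 132 ± 4.11 CPM in the other barcodes (SD, n = 6 samples). The gene fell by 0.48 on the log2 scale (SE 0.07, edgeR adjusted p = 6.91e-08). Sgol2a and Sgol1, which protect cohesion at centromeres, fell by 0.45 and 0.40, Cep70 of the centrosome by 0.43 and Tubg1, gamma-tubulin, by 0.40. Of 22 alternative analyses that gave an adjusted p, Cep70 was called in 9, Tubg1 in 15, Sgol1 in 17 and Sgol2a in 18. Of the 76 genes called lower, 48 were in neither cycle list and 42 in none of the 20 lists.

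Replication genes outside the ranking were lower to a smaller extent and unevenly across samples. Of 46 S phase genes tested, 5 were lower and 0 higher, with a median of -0.10: Slbp, which binds histone mRNA, fell by 0.19, Nasp, a histone chaperone, by 0.18, Hells, a chromatin remodeller, by 0.14, Rrm1 of ribonucleotide reductase by 0.26 and Usp1, a deubiquitinase of DNA repair, by 0.24. The summed list was 0.785 times the other barcodes in control 1 and 0.851 times in control 2, but 0.998 times in control 3 and 0.923 to 0.980 times in cKO samples. Without control 1, no S phase gene was called (0 of 46, edgeR, median -0.03), without control 3 7 were and without cKO 1 3 were. None was called lower after thinning (median -0.04) or when ranked within each sample (median -0.05), 1 with at least 10000 UMIs, 2 against depth-matched barcodes, 3 with the lowest 5% and 10 without the low-count filter.

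Genes of the p53 pathway were higher in the low class. Of 27 tested p53 targets and apoptosis genes, 6 were higher and 0 lower, with a median log2 fold change of 0.23, and the summed list was 1.04 to 1.13 times the other barcodes in the 6 samples. Rps27l, which also counts among the 59 ribosomal protein genes called higher below, had a mean of 1900 CPM over the 12 sums. The list summed to 3624 CPM in the low class and 3349 CPM in the other barcodes, so Rps27l weighs most in the sum. Zmat3, an RNA-binding p53 target (chr3:32334792-32366014), had 14.2, 16.2 and 12.8 CPM in the low class of controls 1 to 3 and 14.2, 12.3 and 13.5 CPM in that of cKO 1 to 3, against 5.94 to 8.81 CPM in the other barcodes. The classes did not overlap (log2 fold change 0.85, SE 0.20, edgeR adjusted p = 0.00534).

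Bbc3, the BH3-only activator of apoptosis also called PUMA (chr7:16308393-16318205), had 17.4 to 30.9 CPM against 11.3 to 18.9 CPM, higher in 6 of 6 samples (log2 fold change 0.57, SE 0.16, edgeR adjusted p = 0.026). Phlda3, an inhibitor of AKT signalling (chr1:135766119-135769136), had 23.6 to 66.3 CPM against 20.7 to 32.6 CPM and was higher in 5 of 6 samples, cKO 2 being the exception (log2 fold change 0.50, SE 0.11). Bax, which forms the mitochondrial pore of apoptosis, rose by 0.15 and Rps27l, a ribosomal protein paralog induced by p53, by 0.12, both in 6 of 6 samples. Mdm2, the ubiquitin ligase of p53 (log2 fold change 0.15, edgeR adjusted p = 0.554), Ccng1 (0.26, adjusted p = 0.248), Btg2 (0.57, adjusted p = 0.0978) and Trp53 itself (0.00, adjusted p = 0.99) did not pass the test. The count of 6 fell to 2 without control 3 and to 4 without cKO 3, to 1 of 19 tested against other barcodes matched for depth (median 0.14) and to 1 of 26 after thinning (median 0.12). It was 3 of 26 with at least 10000 UMIs, 2 of 25 with the lowest 5% and 0 of 23 within the authors' cluster 0 (edgeR, median 0.04), which holds 54.2% of the members. DESeq2, which gave an adjusted p for 3 of the 27, called 2. Among alternatives that gave an adjusted p, Zmat3 was called in 12 of 22, Bbc3 in 10 of 22 and Phlda3 in 17 of 22.

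Of 8 CDK inhibitors and pocket proteins tested, only Cdkn1a was called. Cdkn1a, the p53-induced inhibitor p21 (chr17:29090976-29100727), had 67.2, 91.3 and 95.8 CPM in the low class of controls 1 to 3 and 94.6, 95.6 and 105 CPM in that of cKO 1 to 3. The other barcodes had 65.9, 75.0 and 69.8 CPM and 92.1, 80.4 and 74.3 CPM, so that each sample's low class was higher while the ranges overlapped, and the difference was smallest in control 1 and cKO 1 (log2 fold change 0.30, SE 0.08, edgeR adjusted p = 0.0105). Its call held in 11 of 22 alternatives that gave an adjusted p, and not with the authors' clusters 3 and 4 left out (0.24, adjusted p = 0.107), after thinning (0.16, adjusted p = 0.552), with at least 10000 UMIs (0.23, adjusted p = 0.133), without control 3 (0.22, adjusted p = 0.349) or without cKO 3 (0.26, adjusted p = 0.0699). Summed over all samples, Cdkn1a was at 81.4 CPM in members and 76.6 in the other barcodes of cluster 0 and at 78.2 and 75.2 in cluster 1. It was at 64.7 and 50.1 in cluster 2, at 98.7 and 71.8 in cluster 3 and at 307 and 269 in cluster 4. Clusters 2, 3 and 4 held 26, 29 and 15 members. Cdkn1b and Cdkn2b, inhibitors linked to the arrest of fetal male germ cells, had 30 and 16 UMIs in the whole low class and log2 fold changes of -0.23 (SE 0.30) and -0.13 (SE 0.41), errors too large to show a change of that size. Cdkn1c (-0.20, SE 0.10) and Cdkn2a (-0.11, SE 0.07) did not pass the test. Among 16 G1 cyclins, CDKs and E2F factors, E2f2 was called higher (log2 fold change 0.85, SE 0.24, edgeR adjusted p = 0.0352), at 2.58 to 18 CPM in the low class and 4.28 to 8.67 CPM in the other barcodes, with control 1 against the direction. The E2f2 call held in 9 of 20 alternatives that gave an adjusted p. It was lost after thinning (0.31, edgeR adjusted p = 0.842), with the lowest 5% (0.70, adjusted p = 0.626), without control 3 (0.55, adjusted p = 0.636) and without cKO 3 (0.72, adjusted p = 0.203). Ranked by the 9 replication genes, E2f2 was lower (-1.17, edgeR adjusted p = 0.00465).

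Genes of the ribosome and of the mitochondrial genome were higher by small amounts in every sample. Their UMIs, on average 280635 and 38133 CPM in the other barcodes, are part of the total that divided the ranking share. A barcode rich in them thus ranks lower by construction, and how much of the rise this gives was not tested. Of 80 cytoplasmic ribosomal protein genes tested, 59 were higher and 0 lower, all 80 log2 fold changes were positive, as were 52.2% of those of all genes tested, and their median was 0.08. The summed list was 1.03 to 1.07 times the other barcodes. Rps12, a protein of the small subunit (chr10:23785183-23787275), had 2050 ± 215 CPM in the low class and 1823 ± 169 CPM in the other barcodes (SD, n = 6 samples) and was higher in 6 of 6 samples (log2 fold change 0.15, SE 0.02, edgeR adjusted p = 9.33e-07). Without control 3, 33 ribosomal genes were called, and without cKO 2 35 and without cKO 3 39. With the lowest 5% as the class 0 of 80 were called (edgeR, median 0.05), within cluster 1 0 (median 0.09), within cluster 0 11 (median 0.07), after thinning 17 (median 0.06) and without the low-count filter 2 of 81 (median 0.03). DESeq2 called 68.

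Of 13 mitochondrially encoded mRNAs, 8 were higher and 0 lower, with a median of 0.12. mt-Co3, a subunit of cytochrome c oxidase, had 10908 to 12445 CPM in the low class and 10160 to 11601 CPM in the other barcodes, and rose by 0.14 in 6 of 6 samples (SE 0.02, edgeR adjusted p = 1.07e-08). Of 89 nuclear genes of oxidative phosphorylation 5 were higher, Cox4i1, Cox6c, Ndufa8, Ndufa13 and Atp5k, with a median of 0.05. The lower depth and higher mitochondrial share of members moved with these lists. Against other barcodes matched for depth, 60 of 79 ribosomal genes were still called higher with a median of 0.10, and 2 of 12 mitochondrial mRNAs with a median of 0.05. Of the 13 mitochondrial mRNAs, 3 were called after thinning, 4 without the low-count filter and 0 with the lowest 5% (edgeR, median 0.09).

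Few genes of the germ cell programme were called. Of 29 pluripotency and primordial germ cell genes 1 was called, Nanog, a transcription factor of pluripotent cells (chr6:122707489-122714633). The Nanog call held in 10 of 22 alternatives that gave an adjusted p. Nanog had 28.4, 38.3 and 28.7 CPM in the low class of controls 1 to 3 and 14.2, 35.0 and 32.9 CPM in that of cKO 1 to 3, against 38.7 to 43.0 CPM in the other barcodes, and was lower in 6 of 6 samples (log2 fold change -0.41, SE 0.11, edgeR adjusted p = 0.0239). Pou5f1 (log2 fold change 0.02), Utf1 (-0.02), Dppa3 (0.02) and Dppa5a (0.04) did not pass the test, and the summed list was 0.967 to 1.02 times the other barcodes.

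Lefty1, a secreted inhibitor of Nodal (chr1:180935022-180938400), had 258, 174 and 156 CPM in the low class of controls 1 to 3 and 208, 207 and 268 CPM in that of cKO 1 to 3. The other barcodes had 307, 224 and 182 CPM and 262, 267 and 286 CPM. Each sample's low class was lower, while the spread between samples was wider than the difference between the classes (log2 fold change -0.26, SE 0.05, edgeR adjusted p = 2.17e-04). It was the 1 gene called of 12 Nodal pathway genes, whose median was -0.08. The ligand Nodal (log2 fold change -0.12) and the inhibitor Lefty2 (-0.13) did not pass the test.

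No gene was called among 20 tested for male differentiation, the piRNA pathway and de novo methylation (0 of 20, edgeR, median -0.07), although the summed list was 0.861 to 0.994 times the other barcodes, lower in 6 of 6 samples. Nanos2, the RNA-binding determinant of male germ cell fate, had 38 UMIs in the low class and a log2 fold change of 0.33 (SE 0.29). Dnmt3l, cofactor of de novo DNA methylation, had 0 UMIs in the low class. Of 23 meiotic genes 1 was called, the cohesin subunit Smc3, which fell by 0.18, and Stra8, the trigger of meiosis, was at 0.40 without passing the test. The summed meiotic list was 0.861 to 0.953 times the other barcodes, lower in 6 of 6 samples. Among 28 chromatin regulators only H2afx, the histone variant of DNA damage, was called, and fell by 0.29. The summed list of chromatin regulators was 0.901 to 0.978 times the other barcodes, also lower in 6 of 6 samples. Of 10 tested spermatogonial genes 1 was called, Ddit4.

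Ddit4, a stress-induced inhibitor of mTORC1 (chr10:59949669-59951834), had 148, 150 and 110 CPM in the low class of controls 1 to 3 and 180, 112 and 133 CPM in that of cKO 1 to 3. The other barcodes had 102, 106 and 102 CPM and 126, 98.9 and 93.9 CPM, lower than their sample's low class in 6 of 6 samples (log2 fold change 0.35, SE 0.07, edgeR adjusted p = 8.49e-05). Sel1l, of the ubiquitin ligase that clears misfolded proteins from the endoplasmic reticulum, had 23.5 ± 5.2 CPM against 17.0 ± 1.02 CPM (SD, n = 6 samples; log2 fold change 0.51, SE 0.15, edgeR adjusted p = 0.038), and was called in 6 of 22 alternative analyses that gave an adjusted p. Calr, a chaperone of the endoplasmic reticulum, rose by 0.15.

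Rises were also found in Dhx16, an RNA helicase of splicing (0.35), Psmd9 (0.30) and Psme2 (0.17) of the proteasome, Gabarapl2 of autophagy (0.17) and Prrc1 (0.30), each in 6 of 6 samples. The immediate early genes Ier2 (0.25) and Junb (0.84) were higher, whereas the chaperones Hspa8 (-0.10) and Hsp90aa1 (-0.09) were lower, 4 of 17 tested in that list. Without the 11 barcodes with other markers or low germ cell markers, neither Ier2 (edgeR adjusted p = 0.0694) nor Junb (0.65, adjusted p = 0.152) was called. Junb kept its call in 9 of 21 alternatives that gave an adjusted p, Psmd9 and Ier2 in 5 of 22 and Prrc1 in 6 of 22. Gabarapl2 and Ndufa8 kept theirs in 6 of 23, Psme2 in 10 of 23 and Dhx16 in 15 of 22. Outside the cycle, Umps, the last enzyme of pyrimidine synthesis, had 25.0 to 45.2 CPM against 48.5 to 63.1 CPM with no overlap (log2 fold change -0.50, SE 0.10, edgeR adjusted p = 2.17e-04). Cars, a transfer RNA synthetase, fell by 0.35, Rif1, of replication timing and repair, by 0.26 and Nol8, a nucleolar protein, by 0.26. Nol8 kept its call in 10 of 22 such alternatives, Cars in 11 of 22 and Rif1 in 16 of 23.

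No gene was called among 24 of glycolysis, 19 of growth restraint or 15 imprinted genes (edgeR, medians -0.01, -0.01 and 0.21). Imprinted genes summed to 907 CPM in the low class of cKO 1 and to 387 to 463 CPM in that of the other samples, and the member of cKO 1 with 1917 CPM of other markers is in that sum. Without the 11 barcodes with other markers or low germ cell markers, the median of the imprinted list was 0.06 over 13 genes tested, and without cKO 1 it was 0.10 over 15 and without cKO 3 0.05 over 14. Of 39 replication-dependent histone genes 1 was called higher, Hist1h2bc, and the summed list ran from 0.615 times the other barcodes in control 1 to 1.73 times in cKO 1.

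**Figure D3:**
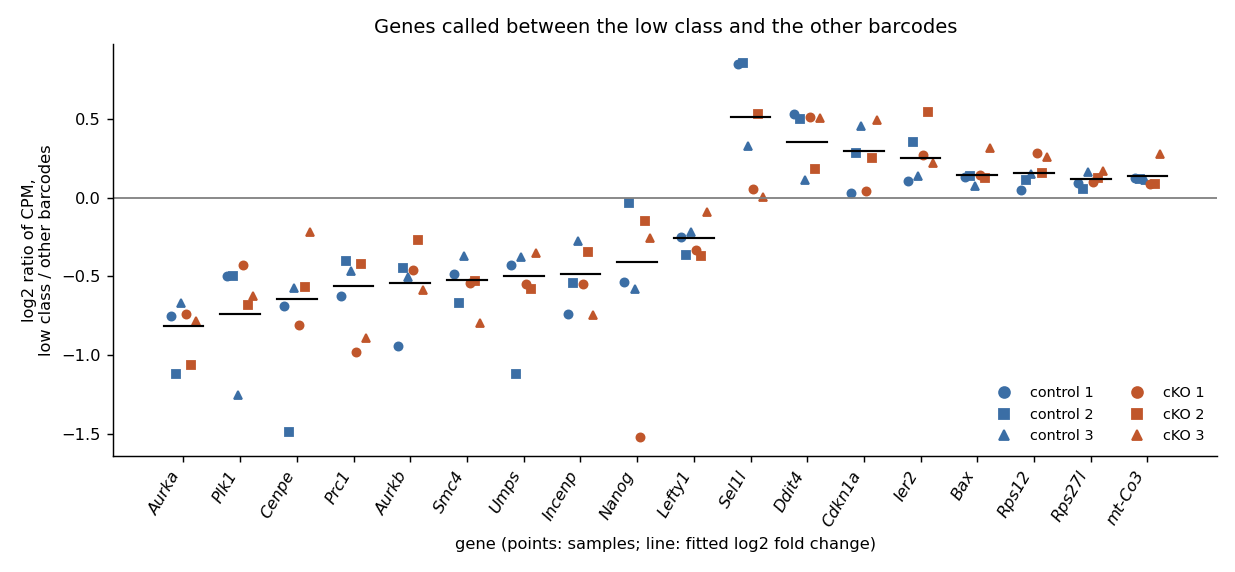
Log2 ratio of TMM-scaled CPM in the low class over the other barcodes of the same sample (y axis) for 18 genes called between the classes (x axis), with 1 point per sample and a line at the fitted log2 fold change. All 6 points lie below 0 for the genes at the left and above 0 for those at the right, and Nanog shows 1 sample, cKO 1 at 14.2 CPM, far below the other 5.

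The differences continued through the ranking beyond the lowest 10%. With the ranking over all samples divided into 10 bins, the low class being the lowest, the mean level of Aurka rose from 45.3 CPM in the lowest bin to 73.4 in the fifth and 136 in the highest, and the G2/M list from 7504 to 10521 CPM. Ribosomal protein genes fell from 292677 to 272465 CPM and the p53 list from 3624 to 3268 CPM between the lowest and the highest bin. Rps27l weighs most in the p53 sum, as above. The S phase list was lowest at both ends, with 6501 CPM in the lowest, 7216 in the fifth and 6669 in the highest bin. Cdkn1a had 90.0 CPM in the lowest bin, 68.7 in the ninth and 92.1 in the highest. Ddit4 was at 137 CPM in the lowest bin and at 95.1 to 116 CPM in the 9 bins above it. These means have n = 6 samples, and genes that move with the cycle follow the ranking by its construction.

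**Figure D4:**
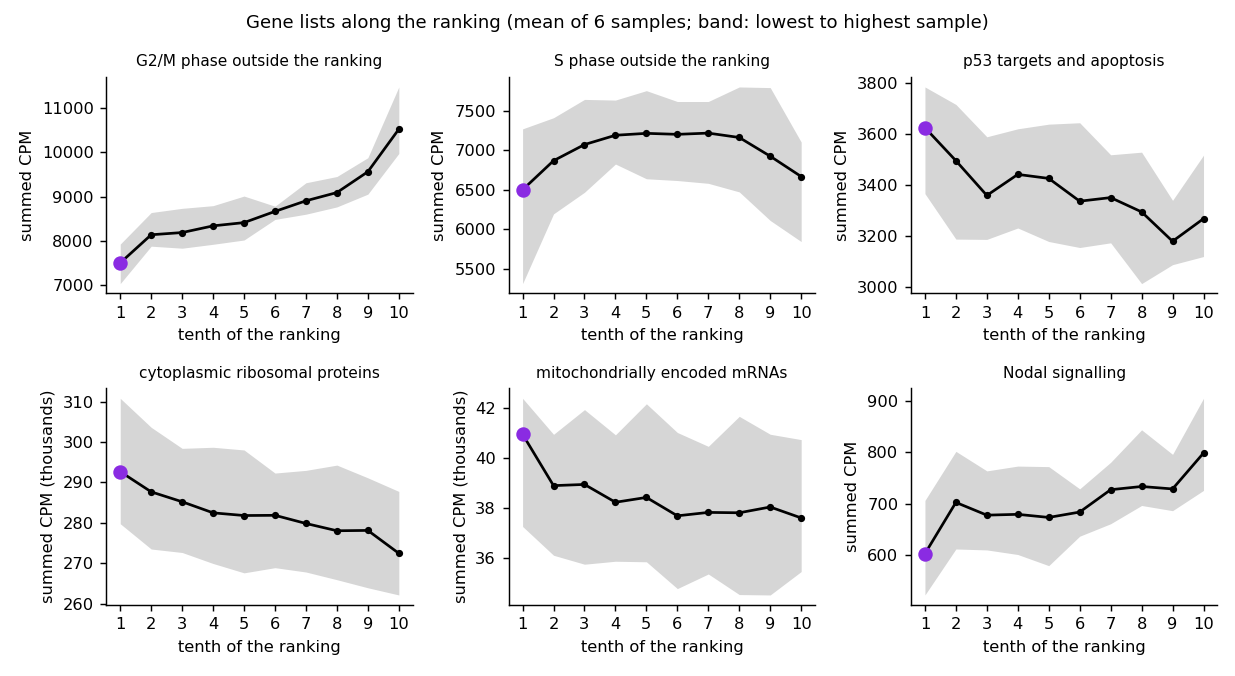
Summed CPM of 6 gene lists (y axes, which do not start at 0) in each of 10 bins of the ranking from lowest to highest (x axis), as the mean of the 6 samples with a band from the lowest to the highest sample and the low class as the large point. The G2/M list climbs from 7504 to 10521 CPM while the S phase list is lowest at both ends. Rps27l weighs most in the p53 sum.

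Which genes differed depended on which ranking genes defined the class. With the 9 replication genes alone, the lowest 10% had 41 of 46 S phase genes lower (median -0.51) and 37 of 54 G2/M genes higher (median 0.35), with Aurka at 0.97 and Plk1 at 1.08. With the 9 mitotic genes alone, 37 of 54 G2/M genes were lower (median -0.37) and 20 of 46 S phase genes higher (median 0.17). The p53 list had a median of 0.01 with 2 of 26 genes called higher in the first case and 0.24 with 8 of 27 in the second. Ribosomal protein genes were higher in both, with 24 and 58 of 80 called (medians 0.03 and 0.07). Both rankings divide by the total that holds these genes. The Nodal list had medians of 0.16 and -0.15, and Lefty1 was at 0.54 in the first case and -0.45 in the second. With the 9 replication genes, Nanog was at 0.25, Incenp at 0.44 and Ier2 at -0.29, each against its direction in the low class. The 2 rankings called 1004 and 513 genes.

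**Figure D5:**
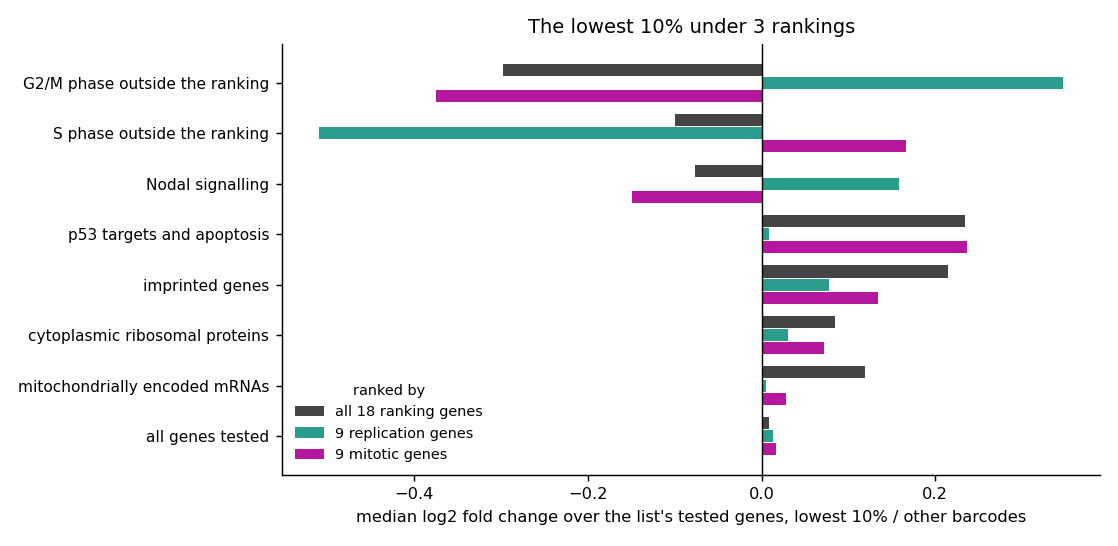
Median log2 fold change of 7 gene lists and of all genes tested (y axis) between the lowest 10% and the other barcodes (x axis), with the barcodes ranked by all 18 genes, by the 9 replication genes or by the 9 mitotic genes. The G2/M, S phase and Nodal lists change sign between the last 2 rankings, while ribosomal protein genes stay above 0 in all 3.

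Members were found in all 5 clusters that the authors deposited without cell type names. They were 276 of 2206 ranked barcodes of cluster 0 (12.5%, exact 95% interval 11.2% to 14.0%), 163 of 1857 of cluster 1 (8.78%, 7.53% to 10.2%) and 26 of 638 of cluster 2 (4.08%, 2.68% to 5.91%). Clusters 3 and 4 held 29 of 299 (9.70%, 6.59% to 13.6%) and 15 of 97 (15.5%, 8.92% to 24.2%). These intervals pool the barcodes of all samples and cover counting error only. By sample, the share ran from 4.23% in cKO 1 to 19.9% in control 3 for cluster 0. For cluster 1 it ran from 1.15% in cKO 1 to 15.0% in control 1. Cluster 0 held 54.2% of the members and 43.3% of all ranked barcodes.

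Tests within the clusters were run for clusters 0 and 1, with sample as a block. The CPM values of this paragraph are of UMIs summed over all samples together. Since the samples differ in their share of members, these values mix class with sample and genotype. In cluster 0, where the S phase list was at 8128 CPM in the other barcodes, members had 6790 CPM, and in a test within that cluster 6 S phase genes were lower (median -0.23) and 3 G2/M genes (median -0.11). In cluster 1, where the G2/M list was at 10471 CPM in the other barcodes, members had 8639 CPM, and 15 G2/M genes were lower (median -0.30) and 0 S phase genes (edgeR, median 0.02, 1 higher). The 2 tests called 34 and 36 genes in all. The p53 list was higher in cluster 4 than elsewhere in both classes, at 5371 CPM in members and 5257 CPM in the other barcodes against 3572 to 3618 and 3281 to 3364 CPM in clusters 0 to 3. With clusters 3 and 4 left out before ranking, 5 p53 genes were called higher (median 0.18).

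Within the low class, no gene passed the test between cKO and control samples. Of 6464 genes tested with edgeR, 0 were called (0%), 98 were higher (1.52%) and 91 lower (1.41%) at an unadjusted p under 0.05, and DESeq2 also called 0. Within the other barcodes edgeR called 0 of 11324 (0%), with 206 higher (1.82%) and 210 lower (1.85%) at an unadjusted p under 0.05. The smallest p-value belonged to Dscc1, which loads the sliding clamp at replication forks (chr15:55076099-55090491). Dscc1 had 18.7, 29.4 and 26.5 CPM in the low class of controls 1 to 3 and 47.3, 68.9 and 32.9 CPM in that of cKO 1 to 3, so the groups did not overlap (log2 fold change 1.08, SE 0.29, edgeR adjusted p = 1). These values rest on 10 to 67 UMIs a sample.

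The next smallest p-values were those of Smc1b, a meiotic cohesin (log2 fold change 0.54, SE 0.15), Slbp (0.41, SE 0.12) and Nek1, a kinase of the primary cilium and DNA repair (0.90, SE 0.26), each with an edgeR adjusted p of 1 and with no overlap between the groups. In the low class all 46 S phase genes were above 0 on the log2 scale, at a median of 0.34, and in the other barcodes 45 of 46 were, at a median of 0.16, beside -0.01 and 0.00 over all genes tested. Replication genes were already known from these samples to be higher in cKO germ cells, so this direction is no independent support. The p53 list (median -0.01) and the ribosomal list (0.00) differed little between the genotypes within the low class.

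Whether the genotype difference itself changed between the low class and the other barcodes was tested for 10498 genes, and 5 were called (0.0476%), 1 higher (0.00953%) and 4 lower (0.0381%). At an unadjusted p under 0.05, 226 were higher (2.15%) and 295 lower (2.81%). DESeq2 called 0. Plk4, the kinase of centriole duplication (chr3:40800019-40816883), had 64.6, 85.4 and 136 CPM in the low class of controls 1 to 3 and 185, 83.3 and 193 CPM in that of cKO 1 to 3. In the other barcodes it had 82.4, 75.0 and 147 CPM and 83.9, 67.2 and 113 CPM, with overlap between the groups in both classes (class by genotype log2 fold change 0.80, SE 0.14, edgeR adjusted p = 1.18e-04). Without cKO 3 the edgeR adjusted p was 0.412, and with the authors' clusters 3 and 4 left out 0.298.

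The other 4 had a lower cKO to control ratio in the low class than in the other barcodes: the antisense genes Gm26737 (-2.59) and Gm15879 (-2.23), Tulp3, a regulator of ciliary trafficking (-1.65), and Gmcl1, a germ cell nuclear envelope gene (-1.17). Gm26737 had 223 of its 255 low-class UMIs in control 3, and without control 3 its edgeR adjusted p was 0.57, that of Gmcl1 0.554 and that of Tulp3 0.407. Without cKO 3 the adjusted p was 0.506 for Gm15879, Tulp3 and Gmcl1, and without cKO 1 0.0586 for Gm15879 and Gmcl1 and 0.228 for Tulp3. Without cKO 2 it was 0.116 for Gmcl1. Tulp3 had 0 UMIs in the 15 members of cKO 1. Reads of antisense genes and of the genes they overlap cannot be told apart where strand is not used, and the counting parameters are not given in the sources used here.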

How the data were processed

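The values are raw UMI counts per gene and barcode in a table deposited for all 6 samples, made by the authors with Cell Ranger and Seurat 3.0 on mm10, per the submitters' processing notes. The annotation and the alignment parameters are not given in the sources used here. The deposited table held 27998 genes. Barcodes were assigned to samples by the names the deposited table gives them, and the authors' cluster numbers were taken from their deposited cell table. The low class and the gene lists were chosen with earlier results of these data known.

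Counts were summed per sample and class without the 18 ranking genes and tested with edgeR 4.0.16 (R 4.3.3, limma 3.58.1): filterByExpr, TMM factors, robust quasi-likelihood F test, Benjamini-Hochberg adjustment over all genes tested, threshold 0.05. The low class was compared with the other barcodes with sample as a block, so each of the 6 samples gave a sum for either class. DESeq2 1.42.0 was an alternative. CPM of gene lists and marker lists carry no TMM factor. Doublets were called per sample with Scrublet (scanpy 1.11.5) and kept, and an alternative left them out. Share intervals are exact 95% Clopper-Pearson intervals (scipy 1.17.1, python 3.11.15).

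Genes named by rule were, of those called with a mean of at least 20 CPM and the same direction in all 6 samples, the 12 largest rises, the 12 largest falls and the 12 largest falls outside the cell-cycle lists. To these came every gene called for class by genotype, the 4 smallest p-values where none was called, Rb1 and the 3 highest members of each list. Other genes named from the lists, among them Zmat3, Bbc3, Phlda3, E2f2, Junb and Cdkn1b, were chosen after their values were seen. Some genes that the rule names are not reported here. Gene positions are from GENCODE vM21 on GRCm38 (mm10), and 97 of the 99 genes named by rule had one. The tests were tried on simulated counts before use. Alternatives changed the size of the class, the UMI minimum, the ranking genes, the barcodes kept, the scaling, the filter and the samples. Leaving out barcodes with markers of other cell types, and testing within the authors' cluster 0 or 1, were chosen after seeing the data.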

Additional observations from a re-analysis of the deposited data

Results flagged for a closer look

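The cKO against control difference differed between the low class and the other barcodes for 5 genes by the class by genotype term of edgeR, and each is given here for that reason with its log2 difference. The 5 are Gm26737 (-2.59, adjusted p = 1.61e-08), Plk4 (0.80, adjusted p = 1.18e-04), Gm15879 (-2.23, adjusted p = 3.88e-04), Tulp3 (-1.65, adjusted p = 0.00322) and Gmcl1 (-1.17, adjusted p = 0.00322). In the low class of controls 1 to 3 Gm26737 had 13, 7 and 223 UMIs, Gm15879 36, 9 and 106, Tulp3 27, 20 and 142 and Gmcl1 44, 41 and 137. In the low class of cKO 1 to 3 Gm26737 had 0, 1 and 11 UMIs, Gm15879 1, 2 and 7, Tulp3 0, 12 and 7 and Gmcl1 8, 21 and 15. Plk4 had 100, 58 and 298 UMIs in controls and 39, 81 and 129 in cKO samples. Control 3 held the most UMIs of all 5 genes and also the most members. All genes together gave 1574226, 678618 and 2294014 UMIs in the low class of controls 1 to 3. These totals differ by less than the UMIs of Gm26737, Plk4, Gm15879 and Tulp3 do. Control 3 thus also had the highest level of these genes among controls, which does not follow for Gmcl1. DESeq2 called none of the 5.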

How the results depend on the processing

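The share of barcodes in the low class was higher in controls under all alternatives run, by 4.65 to 11.5 percentage points, and by 6.93 to 9.85 points with 1 sample left out. Against the 191 genes called between the low class and the other barcodes, 50 were called with the lowest 5% (11 higher, 39 lower), 315 with the lowest 20%, 60 after thinning, 123 against depth-matched barcodes, 1004 with the 9 replication genes, 513 with the 9 mitotic genes, 34 in cluster 0 and 36 in cluster 1. Leaving out 1 sample gave 108 (without control 3) to 173. Without the low-count filter 211 were called, 63 higher and 148 lower. The smallest depth of the low class was in cKO 1, where 1 UMI is 4.93 CPM. Within the low class, 2 genes were called between genotypes without the low-count filter, and leaving out 1 sample gave 0 to 2, the 2 being without control 3. For class by genotype, against 5 genes, 3 were called with the lowest 20% (0 of the 5 among them), 8 with the replication genes (2), 1 with the mitotic genes (0), 6 after thinning (1), 1 when ranked within each sample (1) and 0 with DESeq2, and leaving out 1 sample gave 3 (without cKO 1 or cKO 3) to 8 (without control 1).

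The labels do not state that same-numbered samples are paired. Deviations of same-numbered samples from their group means had correlations of -0.13, 0.11 and 0.02 in the low class and -0.29, 0.35 and 0.15 in the other barcodes. For samples of unlike number the correlations ran from -0.20 to 0.14 and from -0.33 to 0.22. With 3 samples a group, these values cannot decide whether the numbers pair the samples. With the number as a replicate block, the share difference of 8.12 points had an exact permutation p of 0.25, the smallest 3 pairs allow, 2 genes were called within the low class (Gm15879 and Tulp3) and 10 for class by genotype. Between the classes, a fit without the sample block called 8 genes, and that fit ignored that both classes came from the same samples.

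Between the classes, the direction turned under another ranking for the reported genes listed next, with log2 fold changes; the cause was not tested. With the 9 replication genes these were Atp5b -0.16, Aurka 0.97, Aurkb 0.14, Calr -0.0087, Cdk4 -0.11, Cenpe 0.85, Cep70 0.42, Cks2 0.48, Dazl 0.10, Dppa3 -0.056, Dppa5a -0.061, Ect2 0.48, Gabarapl2 -0.038, Gapdh -0.14, Hmgb2 0.077, Hmmr 0.90, Hsp90aa1 0.019, Hspa8 0.27, Ier2 -0.29, Incenp 0.44, Kif11 0.48, Kif20b 0.44, Lefty1 0.54, Lefty2 0.24, Lhx1 0.23, Nanog 0.25, Nol8 0.26, Peg3 -0.34, Plk1 1.08, Prc1 0.54, Psmd9 -0.086, Psme2 -0.014, Rps27l -0.054, Sgol1 0.37, Sgol2a 0.30, Tubb4b 0.33, Tulp3 -0.61. E2f2 (-1.17, edgeR adjusted p = 0.00465), Junb (-0.89, adjusted p = 0.0216) and Zmat3 (-0.14, adjusted p = 0.786) also turned with the 9 replication genes. With the 9 mitotic genes, the genes that turned were Dscc1 0.51, Dut 0.13, Hells 0.071, Hist1h2ae 0.40, Slbp 0.22, Tubg1 0.037. The class by genotype difference of Tulp3 was 0.095 after thinning and 0.27 with the 9 replication genes.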
